A study of Mus musculus with 4 samples.

Results

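The CXC and CX3C chemokine ligands are small secreted or membrane-bound proteins that guide the movement of leukocytes. Their messenger RNAs were measured in cells sorted from mouse lungs as smooth muscle cells, and 10 ligand genes were followed by symbol out of 21462 genes in the deposited table: *Cxcl1*, *Cxcl2*, *Cxcl9*, *Cxcl10*, *Cxcl12*, *Cxcl13*, *Cxcl14*, *Cxcl15*, *Cxcl16* and *Cx3cl1*. All 10 had a mean of at least 10 normalized counts over the 4 libraries, the minimum for testing. The study compared 2 libraries from Tet3 mutant mice with 2 from controls, described as separate animals. All were C57BL/6 adults that received tamoxifen. In the mutants the drug activated an ERT2Cre recombinase under the *α-SMA* (*Acta2*) promoter, designed to delete floxed *Tet3*, which encodes an enzyme that oxidizes 5-methylcytosine in DNA. Controls lacked the floxed allele. Over all experiments of the study they carried the Cre allele, the tdTomato reporter or both, and sorting by the Cre-dependent label implies both here. Sorted cells were tdTomato-positive from a *ROSA26* reporter, after beads against CD45 and Ter-119 had removed blood cells. Any cell in which the *α-SMA* promoter had driven Cre can carry that label, not smooth muscle alone. The labels give neither the sex of the animals nor the interval from tamoxifen to sorting.

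Chemokine ligands bind G protein-coupled receptors on migrating cells and form gradients on the matrix and on endothelium. Ligands with the ELR motif before their first cysteines, such as CXCL1, CXCL2 and CXCL15, attract neutrophils, CXCL1 and CXCL2 through CXCR2. CXCL9 and CXCL10 are induced by interferons and attract T cells through CXCR3. CXCL12 holds cells that carry CXCR4, CXCL13 draws B cells through CXCR5, and CXCL16 and CX3CL1 are made as membrane proteins that ADAM proteases can shed. In the lung these ligands come from epithelium, endothelium, fibroblasts, smooth muscle and resident leukocytes.

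The deposited totals were 6805272 to 7164573 normalized counts per library, and the pattern of low values put the reads assigned to genes at 6.32 M to 7.56 M. *Tet3* had 1847 and 1926 normalized counts in the control libraries against 1534 and 1444 in the mutant libraries, each pair being replicate 1 and then replicate 2 here and throughout, a log2 fold change of -0.34 ± 0.10 (moderated standard error; limma adjusted p = 0.681), so it did not pass the test. The limma unadjusted p of *Tet3* was 0.018, and its value covers all exons of the gene, not only the floxed part. In sorted lung smooth muscle cells the study blotted TET3 protein and reported a strong loss of the oxidized cytosine that the enzyme makes. Control 2 stood apart from the rest. It differed more than 2-fold from all 3 other libraries in 1003 genes, against 120 to 248 for the others, and it had 2 normalized counts of *Xist* and 774 of *Ddx3y*, where the others had 5214 to 6781 and 0. *Ddx3y* lies on the Y chromosome, and *Xist* is expressed in females. By these counts control 2 was male and the other libraries female, so sex was not balanced between the groups. The part of sex in the group differences was not tested. All 8 smooth muscle markers were detected, with summed levels of 4533 and 5837 in the control libraries against 6848 and 6426 in the mutant libraries, and 3 of them had an unadjusted p under 0.05, all higher. Of all genes tested, 6.68% had such a p in either direction. Markers of other cell types were detected too. Among those not taken up again, ciliated cell markers summed to 1445 and 1517 in the control libraries against 2973 and 2182 in the mutant libraries, with 5 of 7 at an unadjusted p under 0.05, all higher, and mesothelial markers to 592 and 442 in the control libraries against 403 and 565 in the mutant libraries, with 1 of 5, lower. Per kilobase of exon, the mean over the libraries was 404 normalized counts for *Acta2*, 532 for the endothelial gene *Cdh5*, 472 for the fibroblast gene *Pdgfra* and 909.8 for the alveolar type 2 gene *Sftpc*. In such bulk samples, fewer cells of a type and less RNA per cell cannot be told apart.

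Levels of the 10 ligands spanned a wide range. Scaled to the length of all annotated exons, *Cxcl15* was the most abundant at 675 normalized counts per kilobase, with 475 to 892 across the libraries. *Cxcl14* followed at 444 per kilobase, and its range of 392 to 518 overlapped that of *Cxcl15*. *Cxcl16* at 224, *Cxcl13* at 208 and *Cxcl12* at 191 per kilobase formed a middle tier whose library ranges overlapped one another. *Cx3cl1* stood alone at 64.6 per kilobase, with libraries between 59.8 and 70.7. The lowest tier held *Cxcl1* at 16.9, *Cxcl10* at 14.0, *Cxcl9* at 9.95 and *Cxcl2* at 6.89 per kilobase, again with overlapping ranges. Scaling to the longest protein-coding transcript instead put *Cxcl12* at 278 per kilobase, above *Cxcl16* at 250 and *Cxcl13* at 208, and *Cxcl1* at 33.3.

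**Figure D1:**
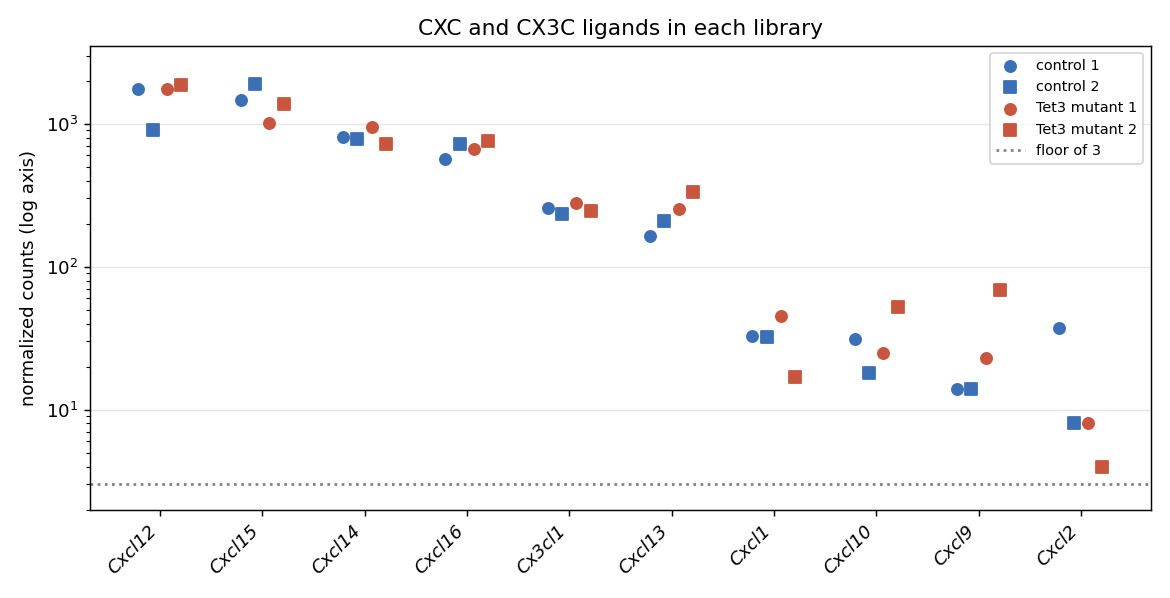
Normalized counts of each ligand (log axis) in the 4 libraries, control in blue and Tet3 mutant in red, with the replicate given by the marker shape and a dotted line at the floor of 3. Both mutants lie above both controls for *Cxcl12*, *Cxcl13* and *Cxcl9* and below them for *Cxcl15*.

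The comparison between groups asked whether loss of *Tet3* changes the output of these ligands. Differences were tested by limma on log2(normalized count + 1) over 16659 genes with Benjamini-Hochberg adjustment, and fold changes are mutant over control. No ligand passed an adjusted p of 0.05, a threshold that 0% of all genes tested passed. At an unadjusted p under 0.05 there was 1 ligand of 10, *Cxcl13*, against 6.68% of all genes. Both mutants lay above both controls in 3 ligands (*Cxcl9*, *Cxcl12*, *Cxcl13*), where 19.6% of all genes did so. Both lay below in 1 ligand (*Cxcl15*), where 19.5% of all genes did so, and the groups overlapped in the other 6. The median log2 fold change of the 10 ligands was 0.12, with 7 above 0, beside -0.01 over all genes tested. *Cxcl9* and *Cxcl13* were also among the chemokine genes that the study picked in these same libraries, so their direction here is not independent evidence. The study described these chemokine genes as differentially expressed, by a Wald test with Benjamini-Hochberg correction and a minimum fold change. The values here are rounded and not raw counts, so no count model was fitted. The limma result therefore does not decide whether the study's call holds. The summed level of the 10 ligands was 5117 and 4823 normalized counts in the controls and 5010 and 5406 in the mutants, so the groups overlapped in total output. Without control 2, the library that stood apart, the log2 fold change was 1.45 for *Cxcl9*, 0.83 for *Cxcl13*, 0.05 for *Cxcl12* and -0.33 for *Cxcl15*.

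**Figure D2:**
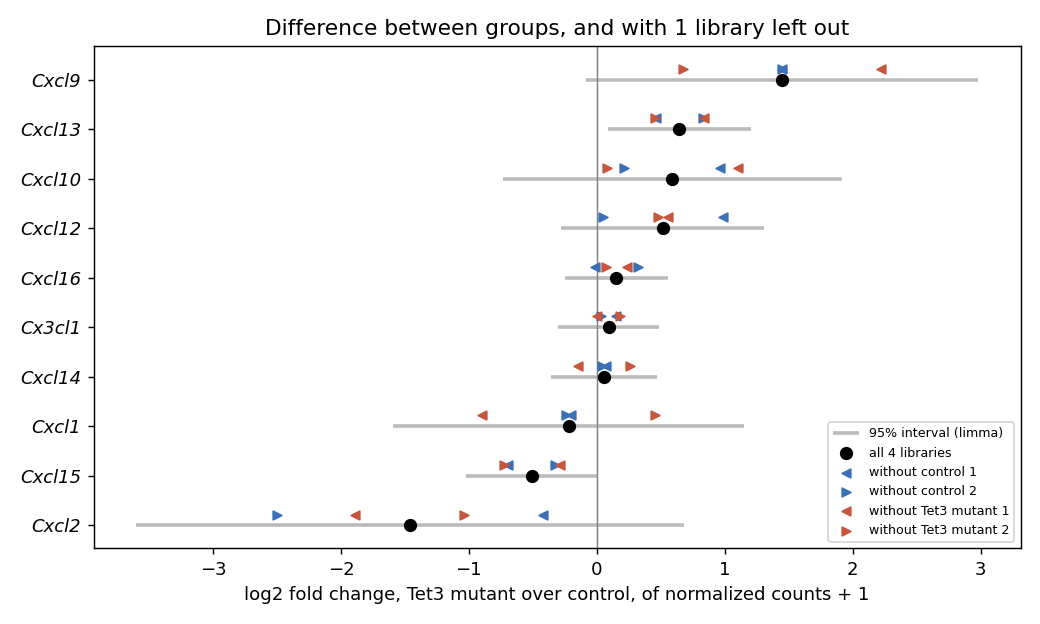
Log2 fold change of each ligand, Tet3 mutant over control, as black points with 95% limma intervals as grey bars, and the value with each library left out as coloured triangles. The interval of *Cxcl13* (0.08 to 1.21) lies above 0, and the intervals of the other ligands include 0.

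*Cxcl9* and *Cxcl10*, the interferon-inducible ligands of CXCR3, lie near each other on chromosome 5. *Cxcl9* (ENSMUSG00000029417, 92321347 to 92328079, GRCm38) had 14 and 14 normalized counts in the control libraries against 23 and 69 in the mutant libraries. Both mutants exceeded the controls, and mutant 2 had most of the transcripts. Its log2 fold change, the largest positive value among the 10, was 1.45 ± 0.60 with an interval of -0.08 to 2.98 (limma adjusted p = 0.681). It was 0.68 without mutant 2. Counting error alone gave 95% intervals of 14.2 to 35.0 for mutant 1 and 8.06 to 23.8 for control 1, which overlap, and 54.7 to 86.7 for mutant 2, which overlaps neither.

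*Cxcl10* (ENSMUSG00000034855, 92346638 to 92348889) had 31 and 18 normalized counts in the control libraries against 25 and 52 in the mutant libraries. The groups overlapped, with mutant 1 between the controls, and mutant 2 was again the highest library. At 0.59 ± 0.52 (limma adjusted p = 0.760), its log2 fold change had an interval of -0.73 to 1.92 and was 0.08 without mutant 2. *Cxcl10* lies wholly inside *Art3* on the opposite strand, and whether counting used strand is not stated. *Art3* had 64 and 61 normalized counts in the control libraries against 85 and 70 in the mutant libraries. The part of *Art3* reads in the *Cxcl10* values was not tested. *Cxcl11*, the remaining interferon-inducible ligand of CXCR3, was not analysed here.

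The genes of 2 induction routes were set beside them. Of 10 interferon response genes, 1 had an unadjusted p under 0.05, beside 6.68% of all genes. It was *Gbp2*, a guanylate-binding protein, which was higher (722 and 559 in the control libraries, 874 and 896 in the mutant libraries, log2 fold change 0.48). The median of the 10 genes was 0.46, or 0.12 without control 2. Their summed level was 3135 and 2131 in the control libraries against 3441 and 3499 in the mutant libraries. Of the 7 tested genes of the interferon-γ axis none had an unadjusted p under 0.05, and *Ifngr1*, a receptor subunit, had the smallest p. *Ifngr1* had 1123 and 961 in the control libraries against 1195 and 1133 in the mutant libraries. The cytokine gene *Ifng* had 1 to 4 normalized counts in each library, close to the floor of 3. The part of these lists in the ligand values was not tested.

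Promoter sequence was read for 9 of the 10 ligands from RefSeq (GRCm38.p6), in windows of 300 bases that begin 250 bases before the annotated start. The stretches of *Cxcl1*, *Cxcl2* and *Cxcl10* are shown because each holds the kappaB consensus, the binding motif of NF-κB, on either strand, which 4.51% of all 32851 windows hold. Capitals mark that motif and, in *Cxcl10*, also the interferon element GAAANNGAAA, held by 3.44% of windows. Numbers count back from the RefSeq start, and all 3 are printed 5′ to 3′ on the gene's strand.
Cxcl1, chr5:90891125-90891240 (+): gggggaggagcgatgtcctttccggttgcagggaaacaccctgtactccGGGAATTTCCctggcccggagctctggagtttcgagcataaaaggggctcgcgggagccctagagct
Cxcl2, chr5:90903759-90903870 (+): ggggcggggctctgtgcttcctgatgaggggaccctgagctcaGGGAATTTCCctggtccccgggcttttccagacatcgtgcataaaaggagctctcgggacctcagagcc
Cxcl10, chr5:92348890-92349109 (-): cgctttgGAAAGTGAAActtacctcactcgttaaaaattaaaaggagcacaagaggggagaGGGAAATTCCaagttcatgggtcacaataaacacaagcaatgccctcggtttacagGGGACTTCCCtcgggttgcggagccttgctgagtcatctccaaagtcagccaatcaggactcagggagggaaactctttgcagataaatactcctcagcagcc

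*Cxcl1* and *Cxcl2* carry the same motif letters, GGGAATTTCC, starting at position -71 and -97. *Cxcl10* has 2 matches, GGGAAATTCC at -159 and GGGACTTCCC at -103, and its interferon element starts at -213. *Cxcl9*, *Cxcl12*, *Cxcl13*, *Cxcl15* and *Cx3cl1* had no match to these motifs or to the GAS motif TTCNNNGAA, which 8.3% of windows hold, within their own 300 bases. *Cxcl14* had a GAS match at -191 and an interferon element match at -172. A match is a description of the letters only.

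*Cxcl1* and *Cxcl2*, which attract neutrophils, differed from each other in their pattern across the libraries. *Cxcl1* (ENSMUSG00000029380, chromosome 5, 90891241 to 90893115) had 33 and 32 normalized counts in the control libraries against 45 and 17 in the mutant libraries. The mutants lay on either side of the controls. A log2 fold change of -0.22 ± 0.54 (limma adjusted p = 0.923) turned to 0.46 without mutant 2 and was -0.90 without mutant 1.

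*Cxcl2* (ENSMUSG00000058427, chromosome 5, 90903871 to 90905938) had 37 and 8 normalized counts in the control libraries against 8 and 4 in the mutant libraries. A single library, control 1, held most of its transcripts, and control 2 equalled mutant 1. Its log2 fold change was -1.46 ± 0.84 (limma adjusted p = 0.689), ranging from -2.50 without control 2 to -0.42 without control 1. Counting intervals at 95% were 26.6 to 51.2 for control 1 and at most 16.6 for any other library. *Cxcl1* was almost level between the controls, where *Cxcl2* differed most.

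Of the 10 genes of the NF-κB route, none had an unadjusted p under 0.05, and their median log2 fold change was 0.02. Those with the smallest p were *Il1r1*, the interleukin-1 receptor, with 1199 and 1024 in the control libraries against 1271 and 1251 in the mutant libraries, and *Nfkbiz*, a nuclear co-regulator of NF-κB, with 1025 and 851 in the control libraries against 947 and 693 in the mutant libraries. *Il1b*, an inducer of *Cxcl1*, had 386 and 246 in the control libraries against 561 and 231 in the mutant libraries, highest in mutant 1 as *Cxcl1* was. The summed level of 10 dissociation stress genes was 8785 and 10988 in the control libraries against 9280 and 6741 in the mutant libraries, lowest in mutant 2, where *Cxcl1* and *Cxcl2* were lowest too. The stress list was highest in control 2, whereas *Cxcl1* was highest in mutant 1 and *Cxcl2* in control 1, so the full orders differed. Of the 10 genes in that list 1 had an unadjusted p under 0.05, beside 6.68% of all genes. It was the immediate early gene *Fosb*, which was lower (log2 fold change -1.28 ± 0.45). The part of these genes in the ligand values was not tested.

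*Cxcl13*, the ligand that organizes B cell follicles, was the ligand with the smallest p. Its gene (ENSMUSG00000023078, chromosome 5, 95956951 to 95961068) had 163 and 210 normalized counts in the control libraries against 254 and 331 in the mutant libraries. Both mutants exceeded both controls. The difference was 0.65 ± 0.22 on the log2 scale, with an interval of 0.08 to 1.21, or 1.56-fold. Its limma adjusted p = 0.681 did not pass the threshold. With 1 library left out it lay between 0.46 and 0.84. Its unadjusted p was no longer under 0.05 without control 1, mutant 1 or mutant 2, or in a fit without the mean-variance trend.

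Markers of the cells near *Cxcl13* in biology differed among themselves. Its receptor *Cxcr5*, a marker of follicular B and T cells, had 51 and 3 normalized counts in the control libraries against 37 and 27 in the mutant libraries. All 7 B cell markers overlapped between groups, with summed levels of 636 and 168 in the control libraries against 603 and 348 in the mutant libraries, so control 2 was lowest there but not for *Cxcl13*. In all genes tested, 19.6% had both mutants above both controls and 19.5% had both below. Of 7 dendritic cell markers 2 had an unadjusted p under 0.05, both higher, beside 6.68% of all genes in either direction. The summed dendritic list had 1223 and 1749 in the control libraries against 1883 and 2259 in the mutant libraries. The 4 libraries thus had the same order for *Cxcl13* and for the dendritic list, as a description. The lymphotoxin route, which induces *Cxcl13* in stroma, had 0 of 5 tested genes at an unadjusted p under 0.05, and its median log2 fold change was 0.15. Its summed level was 2096 and 2276 in the control libraries against 2309 and 2368 in the mutant libraries. That order was also the order of *Cxcl13*, so the match was not particular to the dendritic list. Those with the smallest p were *Relb*, a transcription factor of that route, with 313 and 327 in the control libraries against 390 and 379 in the mutant libraries, and *Ltb*, the lymphotoxin β subunit, with 54 and 24 in the control libraries against 61 and 62 in the mutant libraries. The part of these genes in the *Cxcl13* values was not tested.

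*Cxcl12* (ENSMUSG00000061353, chromosome 6, 117168535 to 117181367), the ligand of CXCR4 made by stromal and endothelial cells, had 1743 and 909 normalized counts in the control libraries against 1751 and 1854 in the mutant libraries. Control 2 was low, and control 1 was close to mutant 1. Its log2 fold change of 0.52 ± 0.31 (limma adjusted p = 0.699) had an interval of -0.28 to 1.31 and was 0.05 without control 2. Summed fibroblast markers had 20152 and 17257 in the control libraries against 20804 and 18799 in the mutant libraries, also lowest in control 2, and endothelial markers had 13363 and 12822 in the control libraries against 14396 and 13875 in the mutant libraries. Both lists differed between control 1 and control 2 far less than *Cxcl12* did. Of 6 pericyte markers 3 had an unadjusted p under 0.05, all higher, beside 6.68% of all genes in either direction. Their sum was 4281 and 4409 in the control libraries against 6229 and 5329 in the mutant libraries, so control 2 was not lowest there. The part of these cells in the *Cxcl12* value was not tested.

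*Cxcl14* (ENSMUSG00000021508, chromosome 13, 56288643 to 56296551), a ligand expressed without induction in many epithelia and fibroblasts, had 801 and 783 normalized counts in the control libraries against 947 and 716 in the mutant libraries. The mutants straddled the controls. Its log2 fold change was 0.06 ± 0.16, with an interval of -0.36 to 0.47 (limma adjusted p = 0.938), and it was -0.15 without mutant 1.

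*Cxcl15* (ENSMUSG00000029375, chromosome 5, 90794534 to 90803067), also called lungkine, is made by lung epithelium. It had 1472 and 1897 normalized counts in the control libraries against 1010 and 1366 in the mutant libraries, and both mutants lay below both controls. Mutants were 0.703-fold of controls, a log2 fold change of -0.51 ± 0.20 with an interval of -1.03 to 0.01 (limma adjusted p = 0.681). It stayed between -0.73 and -0.29 with 1 library left out.

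Alveolar type 2 markers were lower as well. Of 8 markers 3 had an unadjusted p under 0.05, all lower, beside 6.68% of all genes in either direction. In 7 of 8 both mutants were lower than both controls, beside 19.5% of all genes. Their median log2 fold change was -0.60, and their summed level was 14928 and 22359 in the control libraries against 10571 and 13545 in the mutant libraries. None was at 0 in any library. The 4 libraries had the same order for this sum and for *Cxcl15*. Club cell markers, of another epithelial source of *Cxcl15*, had 2284 and 1197 in the control libraries against 1698 and 1951 in the mutant libraries, an order that *Cxcl15* did not share. The other epithelial ligand of the family, *Cxcl17*, had 59 and 65 in the control libraries against 38 and 53 in the mutant libraries, a log2 fold change of -0.46 ± 0.31 (limma adjusted p = 0.715). The part of epithelial cells in the *Cxcl15* value was not tested.

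**Figure D3:**
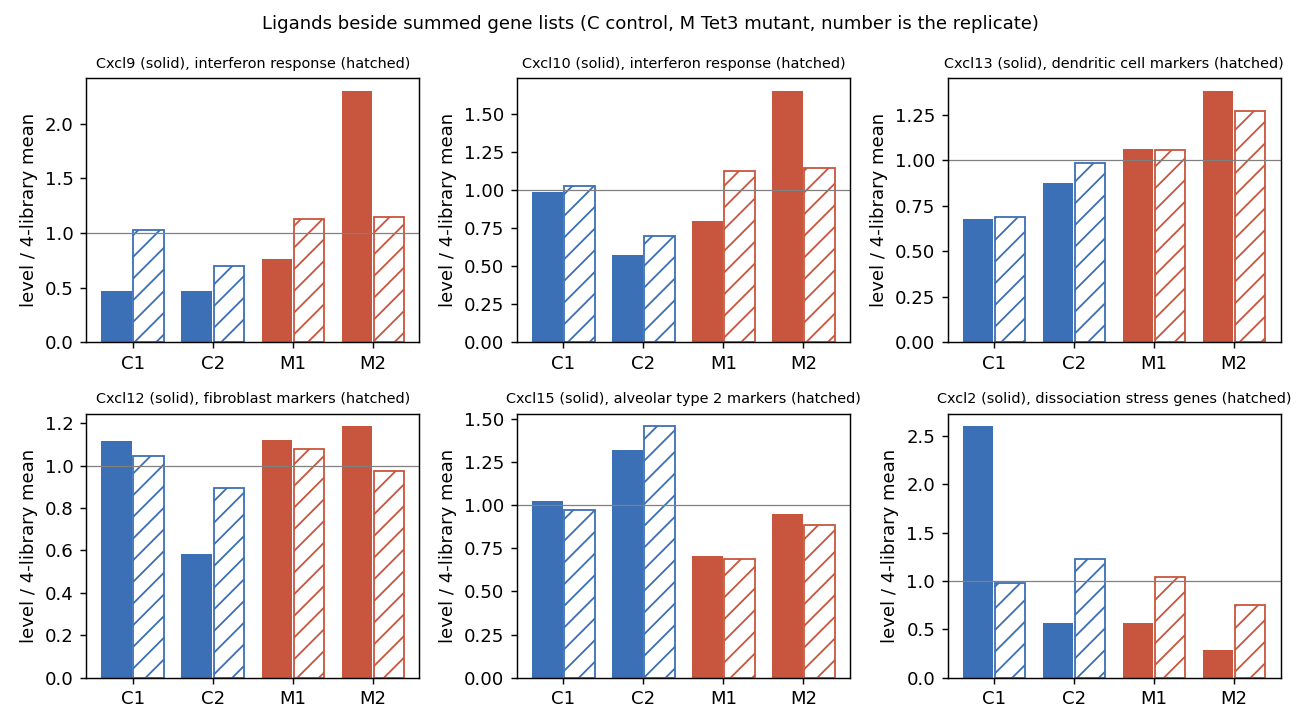
For 6 ligands (solid bars) and the summed normalized counts of a gene list (hatched bars), the level in each library divided by the mean of the 4 libraries, with C for control, M for Tet3 mutant and the replicate number. *Cxcl15* and alveolar type 2 markers are highest in control 2 and lowest in mutant 1, *Cxcl13* and dendritic cell markers are lowest in control 1 and highest in mutant 2, and *Cxcl12* is low in control 2 alone.

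The membrane-bound ligands overlapped between the groups. *Cxcl16* (ENSMUSG00000018920, chromosome 11, 70453983 to 70459984), a ligand of CXCR6 and scavenger receptor of macrophages and dendritic cells, had 567 and 717 normalized counts in the control libraries against 669 and 751 in the mutant libraries. The groups overlapped, and its log2 fold change of 0.15 ± 0.16 (limma adjusted p = 0.798) had an interval of -0.25 to 0.56 and was -0.02 without control 1. *Cxcl16* shares 552 bases with *Zmynd15* on the opposite strand, which had 121 and 183 in the control libraries against 168 and 129 in the mutant libraries.

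*Cx3cl1* (ENSMUSG00000031778, chromosome 8, 94772009 to 94782427), or fractalkine, had 256 and 235 normalized counts in the control libraries against 278 and 246 in the mutant libraries. Mutant 2 lay between the controls. Its log2 difference was 0.09 ± 0.15 with an interval of -0.30 to 0.49 (limma adjusted p = 0.882). Of the 5 genes for proteases that shed or trim chemokines, 1 had an unadjusted p under 0.05, beside 6.68% of all genes. It was the gelatinase gene *Mmp9*, which was higher (372 and 296 in the control libraries, 593 and 514 in the mutant libraries, log2 fold change 0.73 ± 0.17). The sheddases of both ligands had log2 fold changes of 0.14 for *Adam10* and -0.03 for *Adam17*.

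Of the 6 other ligands of the family in the fixed list, 5 were analysed here and 3 were tested. *Pf4*, platelet factor 4, had 134 and 123 normalized counts in the control libraries against 133 and 192 in the mutant libraries. *Ppbp*, a further platelet chemokine, had 81 and 20 in the control libraries against 25 and 109 in the mutant libraries, with the groups fully interleaved. Summed platelet markers had 449 and 315 in the control libraries against 287 and 593 in the mutant libraries, and as for *Ppbp* mutant 2 was highest and control 1 next. *Cxcl3* at 1 to 4 and *Cxcl5* at 4 to 16 normalized counts were under the minimum.

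The receptors were examined on the same libraries, and 7 of 9 were tested. No receptor passed the adjusted threshold, and 2 had an unadjusted p under 0.05, both higher, beside 6.68% of all genes. *Cx3cr1*, the CX3CL1 receptor of monocytes and macrophages, had 605 and 542 normalized counts in the control libraries against 827 and 933 in the mutant libraries (log2 fold change 0.62 ± 0.13; limma adjusted p = 0.681). *Cxcr2*, the neutrophil receptor of CXCL1 and CXCL2, had 99 and 93 in the control libraries against 250 and 141 in the mutant libraries (0.96 ± 0.32). *Cxcr6*, for CXCL16, had 53 and 15 in the control libraries against 74 and 73 in the mutant libraries, a log2 difference of 1.34 that was 0.46 once control 2 was left out. *Cxcr3*, for CXCL9 and CXCL10, had 28 and 22 in the control libraries against 32 and 36 in the mutant libraries (0.44 ± 0.35). *Cxcr4* had 277 and 195 in the control libraries against 199 and 258 in the mutant libraries, and the CXCL12 scavenger *Ackr3* had 407 and 404 in the control libraries against 385 and 403 in the mutant libraries. The log2 fold change of *Cxcr5* was 1.18 and turned to -0.67 without control 2. *Cxcr1* at 0 to 4 and *Ackr1* at 2 to 11 normalized counts were not tested.

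**Figure D4:**
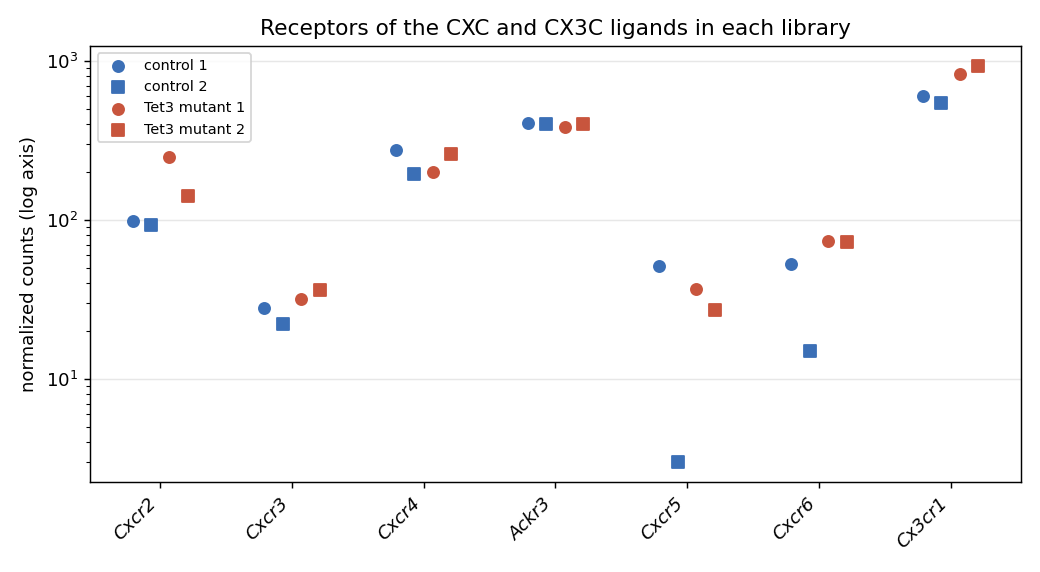
Normalized counts (log axis) of the 7 tested receptors in the 4 libraries, control in blue and Tet3 mutant in red. Both mutants exceed both controls for *Cxcr2*, *Cxcr3*, *Cxcr6* and *Cx3cr1*, beside 19.6% of all genes tested. Both lie narrowly below for *Ackr3* (407 and 404 in the controls, 385 and 403 in the mutants), beside 19.5% of all genes. *Cxcr5* is at 3 in control 2.

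Markers of leukocytes were detected although CD45-positive cells had been depleted, and none passed the adjusted test. The share of all genes with an unadjusted p under 0.05 was 6.68%. Of 7 neutrophil markers, a list that holds *Cxcr2*, 4 had an unadjusted p under 0.05, all higher, with sums of 750 and 540 in the control libraries against 1396 and 880 in the mutant libraries. Of 10 macrophage markers 4 had an unadjusted p under 0.05, all higher, with sums of 7452 and 6746 in the control libraries against 8236 and 9311 in the mutant libraries. No T cell marker of 8 had an unadjusted p under 0.05, and the sums were 790 and 228 in the control libraries against 846 and 877 in the mutant libraries, lowest in control 2 as *Cxcr6* was. The part of leukocytes in the receptor values was not tested. Beside *Cx3cr1* and *Cxcr2*, whose groups did not overlap, the ligands *Cx3cl1*, *Cxcl1* and *Cxcl2* overlapped between groups, as did *Cxcl16* beside *Cxcr6*. Other pairs went another way. Both mutants exceeded both controls for *Cxcr3* and its ligand *Cxcl9*, though not for *Cxcl10*. They did so for *Cxcl12* and *Cxcl13* too, while *Cxcr4* and *Cxcr5* overlapped. Of all genes tested, 19.6% had both mutants above both controls. The difference between ligands and receptors was not tested.

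The promoters of the ligands also differed in CpG content, CpG being where most 5-methylcytosine, the substrate of TET enzymes, is found. Over all windows the median was 7 CpG, with quartiles at 3 and 20. *Cxcl13* and *Cxcl15* held 3 each and *Cxcl9* held 4, whereas *Cx3cl1* held 19, *Cxcl12* 20 and *Cxcl14* 22. *Cxcl1*, *Cxcl2* and *Cxcl10* were between them with 10, 11 and 10. *Cxcl9*, *Cxcl13* and *Cxcl12* are shown, the ligands higher in both mutants, with each CpG in capitals.
Cxcl9, chr5:92328080-92328279 (-): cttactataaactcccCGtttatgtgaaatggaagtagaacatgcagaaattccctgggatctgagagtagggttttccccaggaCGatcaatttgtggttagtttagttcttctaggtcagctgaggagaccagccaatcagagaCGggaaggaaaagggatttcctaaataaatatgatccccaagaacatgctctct
Cxcl13, chr5:95956739-95956938 (+): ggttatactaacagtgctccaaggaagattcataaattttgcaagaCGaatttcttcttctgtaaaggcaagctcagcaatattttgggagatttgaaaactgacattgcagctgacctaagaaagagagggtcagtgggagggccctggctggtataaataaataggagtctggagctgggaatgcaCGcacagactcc
Cxcl12, chr6:117168335-117168534 (+): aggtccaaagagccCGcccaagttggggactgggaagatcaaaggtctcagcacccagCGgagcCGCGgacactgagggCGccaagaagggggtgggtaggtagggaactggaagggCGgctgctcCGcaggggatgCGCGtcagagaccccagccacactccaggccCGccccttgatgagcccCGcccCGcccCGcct

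In the 200 bases printed, *Cxcl9* held 3 CpG, *Cxcl13* 2 and *Cxcl12* 13. The ligands whose groups did not overlap therefore included the 3 with the fewest CpG and 1 of the 3 with the most. Of these *Cxcl15* was lower in the mutants, and the log2 fold change of *Cxcl12* was 0.05 without control 2. Over all genes tested, both mutants lay above both controls in 19.6% and below in 19.5%. A relation between CpG content and the group difference was not tested. Among the 9 ligands, *Cxcl15* with 3 CpG and *Cxcl14* with 22 were the most abundant per kilobase. Whether level follows CpG content over the 9 promoters was not tested. The libraries hold no methylation measurement.

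**Figure D5:**
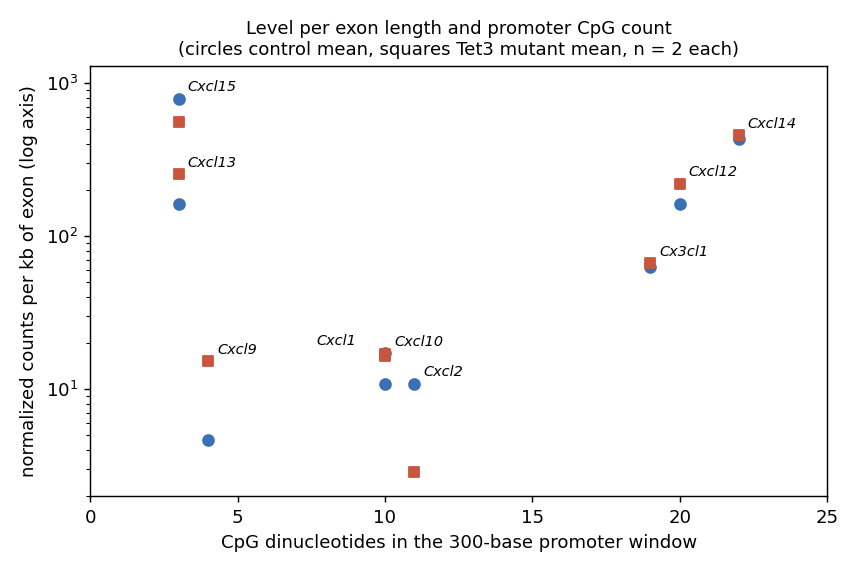
Level of 9 ligands, in normalized counts per kilobase of exon (log axis), against the number of CpG dinucleotides in the 300-base RefSeq promoter window, with circles for the control mean and squares for the Tet3 mutant mean (n = 2 each). Ligands with 3 and with 22 CpG are both among the highest, and *Cxcl1* and *Cxcl10* share the position at 10 CpG, where their marks partly cover each other.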

How the data were processed

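RNA from sorted lung smooth muscle cells was depleted of ribosomal RNA, made into stranded total RNA libraries and sequenced. Per the study's methods and the submitters' processing notes, Trimmomatic 0.36 trimmed the reads, STAR 2.6.0c placed them on GRCm38 and featureCounts (Subread 1.6.0) counted them over exons, without reads that matched several places or genes. The authors scaled the counts with DESeq2 and deposited them rounded to whole numbers, so the values are a score and not raw counts, and no count model was fitted.

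The members and gene lists were chosen with earlier results of these data known. Groups came from the sample titles. Values were tested as log2(value + 1) by limma 3.58.1 in R 4.3.3, with a mean-variance trend, two-sided, over the 16659 genes whose mean reached 10, at an adjusted p of 0.05. With 2 libraries against 2, an exact permutation test of a single gene cannot go below 0.333. Each p-value sets a group difference against a variance moderated over all genes tested, estimated from these libraries alone. Named genes were all 10 ligands, all receptors and, in each further pathway list, genes with an unadjusted p under 0.05 or, failing these, up to 2 with the smallest p. 1 gene that this rule names is not reported here. Genes named beyond these were chosen after their values were seen. Scale factors were estimated from gaps and doublings among low values, and counting intervals (95%, exact Poisson) cover counting error only. Exon lengths came from GENCODE M21. The fit and the factor estimate were tested on simulated data. Alternatives were other pseudocounts, minimums, scalings and variance models, a replicate block and each library left out.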

Additional observations from a re-analysis of the deposited data

How the results depend on the processing

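No ligand passed the adjusted threshold under any of the 8 alternatives with all 4 libraries (a pseudocount of 0.5 or 8, a minimum mean of 1 or 50, TMM factors, equal totals, no trend, replicate block) or with 1 library left out, where limma assumes that a lone sample varies like the other group (smallest limma adjusted p 0.205). All 10 ligands kept their direction in the alternatives with all 4 libraries. A mean of at least 50 left 6 ligands to test. Over all genes, 0 were called in each of these settings except without the trend, where 1 was. The genes with an unadjusted p under 0.05 were 638 higher and 474 lower as reported, 796 and 355 at equal totals and 700 and 937 with the replicate block.

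With 1 library left out, *Cxcl1* ranged from -0.90 to 0.46, *Cxcl14* from -0.15 to 0.26 and *Cxcl16* from -0.017 to 0.32, and the other 7 ligands kept their direction. The count of ligands higher in all mutants than in all controls was 3 as reported and lay between 4 and 6 when 1 library was left out, where fewer values have to be in order. Same-numbered samples deviated together at a Pearson correlation of 0.13 over only 2 pairs, so the replicate numbers are not shown to pair animals. The block left 0 genes called over all genes and brought the ligands with an unadjusted p under 0.05 from 1 (*Cxcl13*) to 3 (*Cxcl9*, *Cxcl13*, *Cxcl15*). Without the trend there were 0 such ligands. With 1 library left out there were 0 to 2: *Cxcl12* without control 1, *Cxcl2* and *Cxcl13* without control 2, *Cxcl9* without mutant 1 and 0 without mutant 2. Depth limits *Cxcl1*, *Cxcl2*, *Cxcl9* and *Cxcl10*, all under 70 normalized counts.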
